A study of Mus musculus with 48 samples.

Results

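This section describes 53 genes of the cell cycle in mouse T cells: the cyclins and cyclin-dependent kinases of G1, the genes that license and start DNA replication, the enzymes that make DNA precursors, the E2f, Foxm1 and Mybl2 transcription factors, the kinases and machinery of mitosis, and 3 inhibitors of cyclin-dependent kinases. The list names the genes by role, and it was drawn up with earlier results of these data known. All 53 were found in both bulk RNA count tables, which hold 52636 gene IDs for the thymic cells and 35661 for the donor T cells, and in the single-cell matrices. 22 members were read as G1/S genes and 23 as mitotic genes.

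The thymic samples were invariant natural killer T (iNKT) cells of FVB/N mice, innate-like T cells that recognise lipids on CD1d. Sorted iNKT1, iNKT2 and iNKT17 cells, which differ in the cytokines they make, gave 2 bulk RNA libraries and 2 libraries of open chromatin (ATAC-seq) each. Total thymic iNKT cells, not split by sublineage, of 2 mice aged 8 weeks gave 1 single-cell library each. The donor samples were conventional CD4 and CD8 T cells from spleen and peripheral lymph nodes, also FVB/N, sampled before transfer (day 0) or on day 7 in mismatched BALB/c hosts, a model of graft-versus-host disease. The day 7 hosts had received no iNKT cells (untreated) or iNKT1, iNKT2 or iNKT17 cells, and each lineage and condition had 3 libraries, 30 in all. The labels do not say whether animals were pooled, nor that the replicate libraries came from separate animals, so the p-values measure the spread between libraries, which may be technical. Titles within each donor T cell group carry 1 of 2 codes, whose meaning the labels do not give. The table's column names do not carry the codes, so a difference between them within a group was not tested.

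A cell that enters division first makes D-type and E-type cyclins, whose kinases release E2F transcription factors. E2F factors switch on the genes that license origins and copy DNA. Cyclin A, cyclin B and Cdk1 then drive entry into mitosis, where the Aurora and Polo kinases, kinesins and centromere proteins divide the chromosomes, and the anaphase-promoting complex ends it. Resting T cells hold these programmes low, and antigen sets them in motion. Many mitotic promoters carry CCAAT boxes bound by NF-Y and a CHR element (cell cycle genes homology region) used by the DREAM complex and by Mybl2 with Foxm1, whereas many replication promoters carry E2F sites.

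RefSeq promoter windows (build GRCm38.p6) were at hand for 43 of the 53 members, and the 250 bases before each annotated start were searched on both strands. The letters searched were CCAAT for the CCAAT box, TTTGAA for the CHR element, and TTTCCCGC, TTTCGCGC, TTTGCCGC and TTTGGCGC for the E2F site. An overlapping match on the other strand was kept as a match of its own. The CCAAT letters stood in 17 of 18 mitotic windows (94.4%), in 11 of 18 G1/S windows (61.1%) and in 34.5% of the 27025 windows of all genes. TTTGAA stood in 7 of the 18 mitotic windows (38.9%), in 2 of the 18 G1/S windows (11.1%) and in 16.3% of all windows. An E2F match stood in 1 mitotic window (5.56%), that of Cdk1, in 5 G1/S windows (27.8%) and in 1.91% of all windows. These are matches of letters in a window and not measured binding.

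The windows below show both kinds of promoter, one set from mitotic genes and one from replication genes, because both groups of genes rose on day 7 in the data that follow. They are not typical of their groups. All mitotic windows shown hold TTTGAA, found in 7 of 18 mitotic windows. Both replication windows shown hold E2F letters, found in 5 of 18 G1/S windows. Capitals mark the matched letters on either strand, so a CCAAT box on the other strand reads ATTGG and a CHR element TTCAAA. In Cdc20, the activator of the anaphase-promoting complex, and in Kif11, the kinesin that separates spindle poles, 1 TTTGAA match lay 18 and 19 bases before the start, after a CCAAT match. Cdk1, the kinase of mitotic entry, held CHR, CCAAT and E2F letters together. In Mcm5 and Mcm6, subunits of the replicative helicase, CCAAT and E2F letters were found and no TTTGAA.
Cdc20 (chr4:118437344-118437593, minus strand): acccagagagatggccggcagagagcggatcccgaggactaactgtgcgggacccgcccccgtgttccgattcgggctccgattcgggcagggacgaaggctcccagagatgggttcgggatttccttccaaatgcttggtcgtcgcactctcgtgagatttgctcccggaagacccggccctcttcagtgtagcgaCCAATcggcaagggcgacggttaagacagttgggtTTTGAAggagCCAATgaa
Kif11 (chr19:37376132-37376381, plus strand): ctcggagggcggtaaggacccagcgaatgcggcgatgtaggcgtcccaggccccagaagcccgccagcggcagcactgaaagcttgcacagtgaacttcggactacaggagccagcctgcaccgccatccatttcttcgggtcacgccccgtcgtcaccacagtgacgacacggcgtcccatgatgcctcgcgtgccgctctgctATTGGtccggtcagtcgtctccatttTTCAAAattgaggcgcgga
Ccnb2 (chr9:70421555-70421804, minus strand): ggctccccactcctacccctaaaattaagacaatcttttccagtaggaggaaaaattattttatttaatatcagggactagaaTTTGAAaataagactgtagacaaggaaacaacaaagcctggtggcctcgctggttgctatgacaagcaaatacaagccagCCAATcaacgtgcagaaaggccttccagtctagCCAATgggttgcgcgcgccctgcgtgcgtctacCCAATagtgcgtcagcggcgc
Cdk1 (chr10:69352913-69353162, minus strand): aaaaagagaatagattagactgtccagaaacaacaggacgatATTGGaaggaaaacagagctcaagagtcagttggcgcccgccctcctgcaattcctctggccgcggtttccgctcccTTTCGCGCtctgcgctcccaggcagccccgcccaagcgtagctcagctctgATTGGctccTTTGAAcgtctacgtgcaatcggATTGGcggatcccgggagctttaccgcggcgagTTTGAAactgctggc
Mki67 (chr7:135716380-135716629, minus strand): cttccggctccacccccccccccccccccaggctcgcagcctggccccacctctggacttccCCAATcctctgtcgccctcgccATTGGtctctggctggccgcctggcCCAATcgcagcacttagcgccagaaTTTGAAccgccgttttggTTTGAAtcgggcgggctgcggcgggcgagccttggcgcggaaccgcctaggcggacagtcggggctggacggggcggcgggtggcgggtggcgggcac
Mcm5 (chr8:75109259-75109508, plus strand): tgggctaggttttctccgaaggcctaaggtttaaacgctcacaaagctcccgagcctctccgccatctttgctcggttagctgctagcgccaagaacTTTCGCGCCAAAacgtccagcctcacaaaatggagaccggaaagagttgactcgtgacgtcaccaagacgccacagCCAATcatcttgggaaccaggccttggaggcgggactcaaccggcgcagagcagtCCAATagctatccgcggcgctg
Mcm6 (chr1:128359706-128359955, minus strand): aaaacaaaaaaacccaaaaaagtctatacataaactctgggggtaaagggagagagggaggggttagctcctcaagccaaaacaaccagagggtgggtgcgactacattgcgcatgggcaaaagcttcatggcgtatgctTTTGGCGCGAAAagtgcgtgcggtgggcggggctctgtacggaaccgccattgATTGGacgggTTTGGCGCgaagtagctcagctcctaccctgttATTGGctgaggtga

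The donor T cell libraries held 25323879 to 37055182 counts for CD4 and 26134241 to 33658426 for CD8, the thymic RNA libraries 26811373 to 33688697, and the ATAC libraries 13299586 to 42964216. Levels are given as CPM, a gene's count per a fixed number of counts in the scaled library. CD4 and CD8 libraries were scaled separately, so levels are set side by side within a lineage, and the lineages were compared in a joint fit of all 30 libraries. Replicates of a donor T cell group correlated at 0.949 to 0.993 (Spearman across genes), both ends of that range being in CD4 day 0, and the lowest value involved CD4 day 0 library 3. The 6 markers of conventional T cells were all counted in both lineages on both days, which is no measure of purity. Cd4 stood at 20.8 to 48.2 CPM in CD8 day 0 libraries and at 411 to 1030 CPM in CD4 day 0 libraries. Cd8a stood at 3.7 to 7.64 CPM in CD4 day 0 libraries and at 1030 to 1090 CPM in CD8 day 0 libraries. Thymic replicates were further apart, at 0.769 for iNKT17, 0.86 for iNKT2 and 0.863 for iNKT1.

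Between day 0 and day 7 without treatment, nearly the whole programme rose in donor CD4 T cells. 47 of the 53 members rose, 2 fell (Ccnd2 and Cdkn1b) and 4 did not pass the test (edgeR quasi-likelihood test, Benjamini-Hochberg adjusted p under 0.05 over 15031 genes). Over all genes tested, 17.4% rose and 18.2% fell. The median log2 fold change was 2.39 for the members and -0.0822 for all genes. By role, 11 of 11 licensing genes rose (median 1.43), as did 3 of 4 DNA synthesis genes (1.60), 5 of 5 transcription factors (3.36), 9 of 9 G2/M cyclins and kinases (3.86) and 14 of 14 genes of the mitotic machinery (3.47). Of the 7 G1 cyclins and kinases 3 rose, 1 fell and 3 did not pass (median 0.0773). Of 84 further cell cycle genes outside the list, 54 rose and 6 fell, with a median of 1.37.

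The G1 genes moved in both directions in CD4 cells. Ccnd2, a D-type cyclin that partners Cdk4 and Cdk6, stood at 649.6, 654.5 and 568 CPM on day 0 and at 220, 169.5 and 175.4 CPM on day 7. All day 7 libraries lay below all day 0 libraries, a log2 fold change of -1.73 ± 0.16 (SE, adjusted p = 1.69e-06). Ccne1, the E-type cyclin that activates Cdk2 at the start of S phase, stood at 7.305, 7.074 and 11.82 CPM on day 0 and rose to 53.61, 59.35 and 61.19 CPM (2.74 ± 0.25, adjusted p = 1.77e-06). Ccnd3, Cdk2 and Cdk4 had changes of -0.09 ± 0.16 (adjusted p = 0.694), 0.08 (0.82) and -0.03 (0.914), so these G1 genes were measured near their day 0 level while Ccne1 rose. Their day 0 level itself was uneven: Cdk4 stood at 150.9 and 139 CPM in 2 libraries and at 227.5 CPM in library 3.

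Among the CD4 replication genes, Mcm6 stood at 83.88, 77.1 and 105 CPM on day 0 and at 291.1, 399.9 and 353.1 CPM on day 7 (1.97 ± 0.17, adjusted p = 7.61e-07). Mcm10, which helps to start the helicase, went from 1.826, 2.054 and 3.666 CPM to 14.19, 22.02 and 19.35 CPM (2.89 ± 0.30, adjusted p = 5.41e-06). The groups did not overlap for either gene. Rrm1 and Rrm2 are the large and small subunits of ribonucleotide reductase, which makes the DNA precursors. Rrm1 went from 78.94, 79.01 and 91.85 CPM to 177.7, 241.7 and 222 CPM (1.36 ± 0.15, adjusted p = 8e-06). Rrm2 went from 14.12, 12.18 and 38.34 CPM to 125.5, 214.8 and 240.4 CPM (3.17 ± 0.41, adjusted p = 3.82e-05), and CD4 day 0 library 3 was the highest of the day 0 libraries for both. Pcna, the sliding clamp of the DNA polymerases, had a change of 0.42 ± 0.21 that did not pass (adjusted p = 0.134).

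The transcription factors and mitotic genes had larger changes in CD4 cells. Mybl2, which acts on late cell cycle promoters, stood at 2.517, 3.423 and 3.597 CPM on day 0 and at 40.54, 50.27 and 46.76 CPM on day 7 (3.85 ± 0.23, adjusted p = 6.25e-08). E2f8, a repressing member of the E2F family, went from 1.061, 1.512 and 0.6852 CPM to 12.4, 16.76 and 14.35 CPM (3.73 ± 0.35, adjusted p = 2.11e-06). Both sets of day 7 libraries lay clear of day 0. Aurkb, the kinase of the chromosomal passenger complex, went from 3.035, 1.854 and 3.597 CPM to 37.24, 45.48 and 45.34 CPM (3.92 ± 0.23, adjusted p = 5.2e-08). Cdc25c, a phosphatase that activates Cdk1, was close to absent on day 0 at 0.1974, 0.4849 and 0.2398 CPM and stood at 11.71, 18.44 and 13.14 CPM on day 7 (5.54 ± 0.36, adjusted p = 9.18e-08). Day 0 and day 7 did not overlap for either gene.

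In the mitotic machinery of CD4 cells, Mki67, the proliferation antigen that coats mitotic chromosomes, went from 8.242, 5.048 and 2.946 CPM to 83.2, 102.9 and 50.94 CPM (3.86 ± 0.47, adjusted p = 2.24e-05). Bub1b, a kinase-like protein of the spindle checkpoint, went from 4.516, 4.792 and 4.111 CPM to 68.62, 117.6 and 82.11 CPM (4.32 ± 0.28, adjusted p = 9.18e-08). Tpx2, which activates Aurora A on the spindle, went from 5.01, 6.874 and 10.83 CPM to 71.46, 101 and 83.25 CPM (3.50 ± 0.27, adjusted p = 4.18e-07). Mki67 varied most between the day 7 libraries of these genes, and day 0 and day 7 did not overlap for any of them. Among the inhibitors of cyclin-dependent kinases the directions differed. Cdkn1a (p21) rose from 2.443, 2.225 and 3.906 CPM to 17.03, 19.28 and 23.28 CPM (2.80 ± 0.25, adjusted p = 1.19e-06). Cdkn2c (p18, an inhibitor of Cdk4 and Cdk6) rose from 5.577, 3.679 and 7.332 CPM to 28.59, 30.59 and 17.74 CPM (2.22 ± 0.33, adjusted p = 0.000148). Cdkn1b (p27), which holds resting T cells out of the cycle, fell from 19.25, 17 and 13.94 CPM to 7.866, 5.565 and 3.534 CPM (-1.56 ± 0.29, adjusted p = 0.0007).

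In donor CD8 T cells 51 of the 53 members rose on day 7 and the same 2 genes, Ccnd2 and Cdkn1b, fell. Over the 14586 genes tested, 30.9% rose and 29.8% fell. The median log2 fold change was 3.49 for the members and -0.0484 for all genes. All 11 licensing genes (median 2.08), 4 DNA synthesis genes (2.86), 5 transcription factors (4.01), 9 G2/M cyclins and kinases (5.13) and 14 genes of the mitotic machinery (4.56) rose. Of the 7 G1 cyclins and kinases 6 rose and Ccnd2 fell (median 1.32). The smallest rises were those of Ccnd3 (0.24 ± 0.09, adjusted p = 0.0315), Cdk4 (0.28 ± 0.11, adjusted p = 0.0321) and Cdt1, a licensing factor (0.34 ± 0.10, adjusted p = 0.00766), and the largest that of Cdc25c (5.95 ± 0.27). Of the 84 further cell cycle genes, 70 rose and 4 fell.

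**Figure D1:**
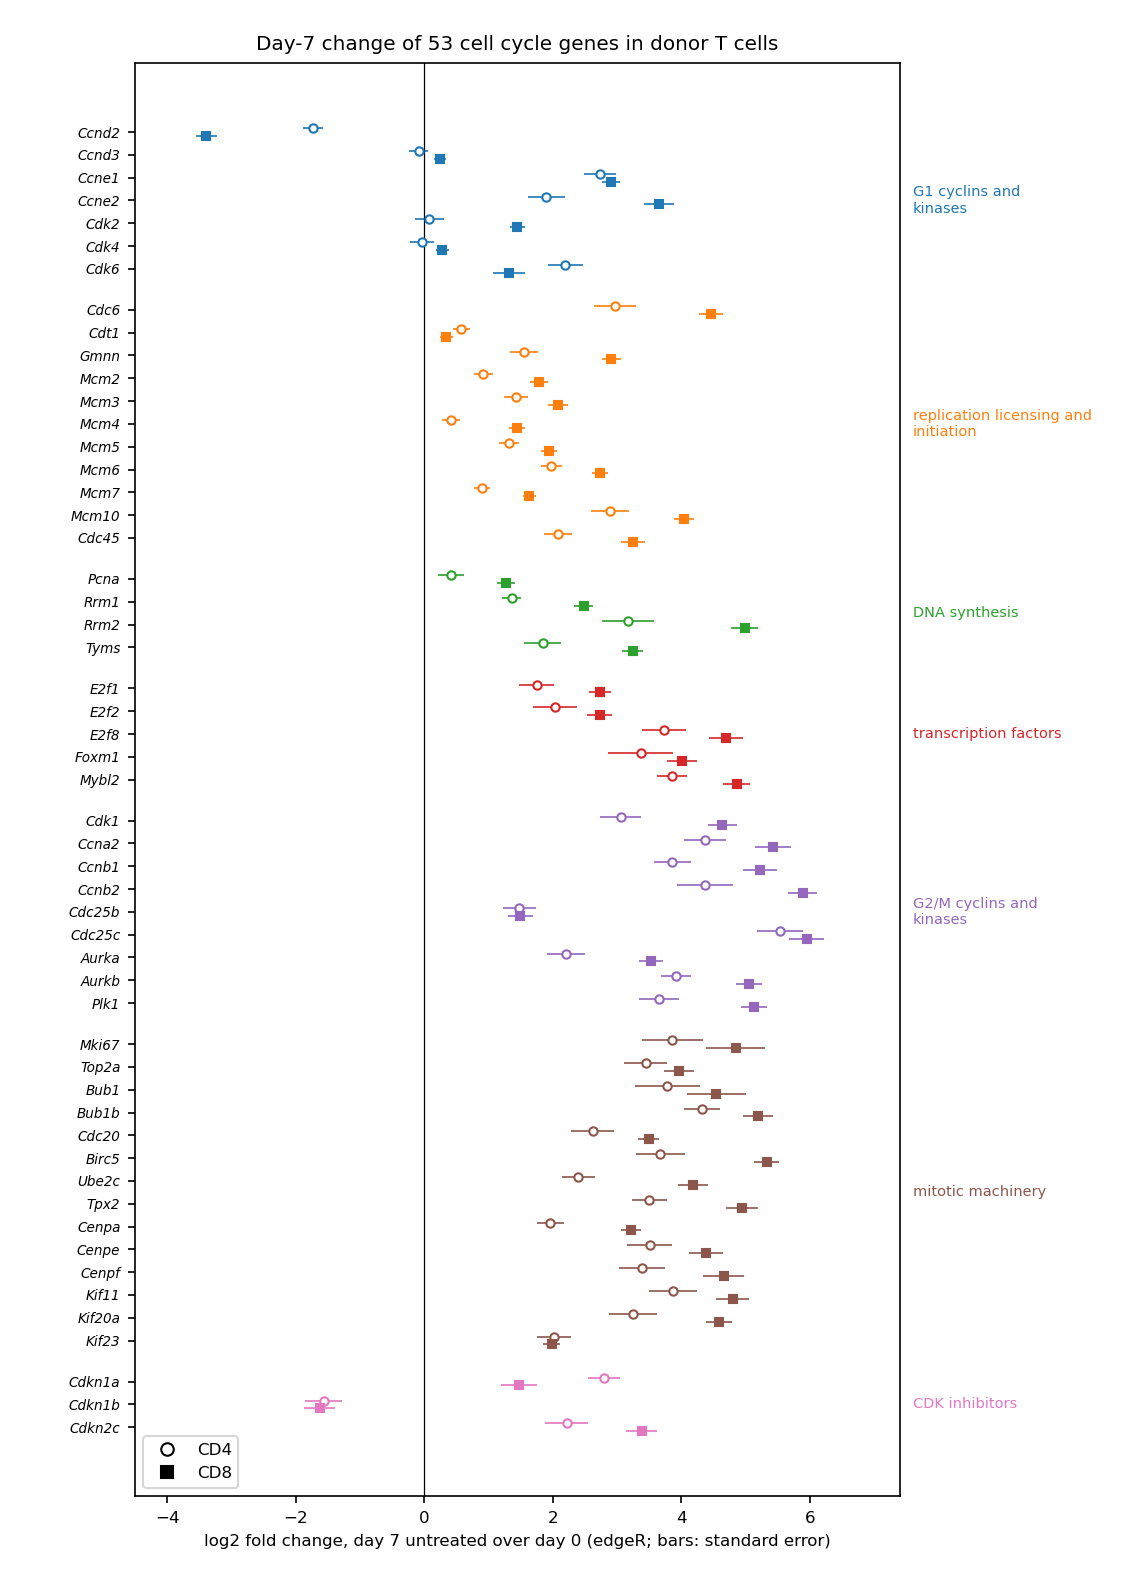
Log2 fold change from day 0 to day 7 without treatment for each of the 53 members, ordered by role; open circles are CD4, filled squares CD8, bars are standard errors, and the line marks no change. Ccnd2 and Cdkn1b lie below 0 in both lineages, and the mitotic members lie furthest to the right, with medians of 3.50 in CD4 and 4.66 in CD8.

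Ccnd2 in CD8 cells stood at 568.9, 552.1 and 625 CPM on day 0 and at 51.97, 49.95 and 64.85 CPM on day 7 (-3.39 ± 0.16, adjusted p = 1.89e-10). Ccne1 went the other way, from 11.17, 14.83 and 13.31 CPM to 102.8, 93.51 and 96.4 CPM (2.90 ± 0.14, adjusted p = 2.28e-10). Neither gene's groups overlapped. Cdc6, which loads the helicase onto origins, went from 4.708, 3.699 and 3.872 CPM to 100.2, 84.58 and 85.97 CPM (4.46 ± 0.18, adjusted p = 3.84e-11). Mcm10 went from 2.584, 3.14 and 4.24 CPM to 54.57, 57.17 and 52.62 CPM (4.04 ± 0.16, adjusted p = 3.3e-11). Rrm2 went from 14.76, 16.57 and 19.62 CPM to 579.8, 482.7 and 548.7 CPM (4.98 ± 0.21, adjusted p = 6.51e-11). These CD8 libraries were close together within each day, library 3 of day 0 included. Tyms, thymidylate synthase, went from 11.86, 14.98 and 16.93 CPM to 151.6, 137.3 and 124.5 CPM (3.24 ± 0.16, adjusted p = 2.6e-10).

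Of the CD8 transcription factors, Mybl2 went from 2.814, 5.222 and 3.448 CPM to 121.5, 114.9 and 95.7 CPM (4.86 ± 0.21, adjusted p = 6.76e-11) and E2f8 from 1.608, 1.399 and 1.131 CPM to 32.42, 45.7 and 28.77 CPM (4.69 ± 0.26, adjusted p = 1.1e-09). The mitotic kinase Plk1 went from 4.335, 3.202 and 4.748 CPM to 165.7, 143.2 and 122.3 CPM (5.13 ± 0.20, adjusted p = 2.85e-11). Ccnb2, a B-type cyclin that partners Cdk1, went from 4.766, 8.051 and 6.501 CPM to 452.7, 373.4 and 315.4 CPM (5.89 ± 0.23, adjusted p = 3.27e-11). In each case every day 7 library stood far above every day 0 library. Birc5 (survivin, a partner of Aurkb) went from 5.541, 6.777 and 8.536 CPM to 316.8, 292.6 and 228.2 CPM (5.33 ± 0.20, adjusted p = 1.84e-11), and Kif20a, a kinesin of cytokinesis, from 4.565, 5.689 and 6.501 CPM to 142.3, 136.2 and 123.7 CPM (4.58 ± 0.20, adjusted p = 7.55e-11). Mki67 went from 3.847, 1.989 and 8.31 CPM to 109.9, 208.5 and 91.09 CPM (4.85 ± 0.46, adjusted p = 5.86e-07), again with the widest spread. Cdkn2c rose from 3.014, 2.642 and 4.409 CPM to 39.51, 41.2 and 24.23 CPM (3.38 ± 0.24, adjusted p = 1.27e-08) and Cdkn1b fell from 9.388, 10.51 and 10.29 CPM to 2.801, 3.379 and 3.616 CPM (-1.62 ± 0.24, adjusted p = 3.52e-05).

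Markers of other cells also differed between the days. The summed level of 8 erythroid and platelet markers was 3460 to 9210 CPM in CD4 day 0 libraries and 3.3 to 9.64 CPM on day 7, and 653 to 824 CPM against 1.81 to 13.1 CPM in CD8. The 6 B and plasma cell markers summed to 419 to 534 CPM on day 0 and 3.28 to 6.07 CPM on day 7 in CD4, and to 193 to 693 CPM and 7.78 to 10.3 CPM in CD8. The 6 myeloid markers went from 655 to 801 CPM to 162 to 175 CPM in CD4 and from 425 to 1480 CPM to 145 to 258 CPM in CD8. On day 7 no B cell, plasma cell or myeloid marker was at 0 in CD4, and of these lists Mzb1, a plasma cell marker, was at 0 in CD8. In bulk libraries fewer cells of a type and less RNA per cell cannot be told apart. The part of these other cells in the day 7 changes was not tested.

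The lineages differed in the day 7 change. In the joint fit the signed log2 change was higher in CD8 for 26 members, lower for 2 and did not differ by the test for 25 (edgeR interaction of day and lineage, adjusted p under 0.05). A lower signed change can be a deeper fall, as for Ccnd2. Over the 15601 genes tested 4.49% had a higher signed change in CD8 and 4.29% a lower one. The median difference, CD8 minus CD4 on the log2 scale, was 0.957 for the members and -0.0125 for all genes, and 46 of 53 members lay above 0. Among G1/S members 14 were higher and 1 lower, with a median of 0.838, and among mitotic members 11 were higher and none lower, and their median was also above 0. Without CD4 day 0 library 3 the count was 14, with 12 members higher and 2 lower. Cd4 stood at 411 CPM in that library, against 987 and 1030 CPM in CD4 day 0 libraries 1 and 2. In the same order, Cd3e stood at 522 CPM against 923 and 921 CPM, and Trac at 1930 CPM against 1190 and 1160 CPM. The erythroid marker Hba-a1 was higher there (4240 CPM against 2470 and 1330 CPM) and the B cell marker Ms4a1 lower (79 CPM against 119 and 135 CPM). The part of these differences in the count was not tested.

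Cdk2, the partner of cyclin E, stood at 43.01, 39.9 and 75.27 CPM in CD4 on day 0 and at 47.71, 54.81 and 64.33 CPM on day 7, whereas in CD8 it went from 32.21, 33.57 and 30.47 CPM to 96.24, 82.16 and 83.63 CPM. The difference in change was 1.34 ± 0.26 (adjusted p = 0.00152) and 0.994 without CD4 day 0 library 3 (adjusted p = 0.00264). Ube2c, the ubiquitin-conjugating enzyme of the anaphase-promoting complex, went from 4.96, 5.476 and 8.668 CPM to 28.23, 40.49 and 31.41 CPM in CD4 and from 3.962, 4.507 and 7.349 CPM to 93.24, 111.1 and 83.09 CPM in CD8. Its difference in change was 1.76 ± 0.34 (adjusted p = 0.00152). Cenpa, the centromeric histone, went from 50.17, 43.7 and 58.31 CPM to 196.9, 232.9 and 162.5 CPM in CD4 and from 41.74, 42.15 and 45.87 CPM to 454.8, 424.1 and 322 CPM in CD8 (difference 1.23 ± 0.26, adjusted p = 0.00354). On day 0 the lineages differed by -0.19 ± 0.25 in Ube2c and by -0.16 ± 0.18 in Cenpa, neither passing (adjusted p = 0.724 and 0.698).

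Rrm1 had a difference in change of 1.09 ± 0.20 (adjusted p = 0.00109), Mcm4 of 1.01 ± 0.18 (0.000858), Gmnn, the inhibitor of re-licensing, of 1.33 ± 0.26 (0.00175), Tyms of 1.38 ± 0.34 (0.0111) and Plk1 of 1.46 ± 0.35 (0.0098). Mybl2 (0.98 ± 0.30, adjusted p = 0.0394) and Cdk1 (1.56 ± 0.38, 0.0113) no longer passed without CD4 day 0 library 3, at 0.877 and 1.12. Mybl2 lost its call in 8 of 12 fits that each left out 1 library (0.788 to 1.27), and kept it without CD4 day 0 library 1, CD8 day 0 library 2, untreated CD4 day 7 library 2 or untreated CD8 day 7 library 3. Tyms still passed without CD4 day 0 library 3 at 0.82. The fall of Ccnd2 was deeper in CD8 by 1.68 ± 0.22 (difference -1.68, adjusted p = 1.47e-05), and the rise of Cdkn1a was smaller in CD8 (difference -1.35 ± 0.38, adjusted p = 0.0248). The Cdkn1a call was lost in 5 of 12 fits (-1.64 to -1.07 over the 12), those without CD8 day 0 library 1 or 2, untreated CD8 day 7 library 1 or 2, or untreated CD4 day 7 library 3. Mki67 had a difference of 0.97 ± 0.62 that did not pass (adjusted p = 0.355), with its wide spread on day 7.

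Compared directly on day 7, 43 members were higher in CD8, Ccnd2 was lower (-1.71 ± 0.16, adjusted p = 4.08e-08) and 9 did not pass. Over all genes 7.78% were higher and 6.67% lower. The median over the members was 1.17, with 19 of 22 G1/S and 20 of 23 mitotic members higher. Mcm7 was higher by 1.11 ± 0.11 (adjusted p = 1.3e-07), Aurkb by 1.57 ± 0.20 (3.56e-06), Mcm10 by 1.61 ± 0.23 (1.61e-05) and Cdc6 by 1.57 ± 0.24 (6.22e-05). The 9 that did not pass were Ccnd3, Cdk6, E2f2, Cdc25b, Mki67 (0.84 ± 0.43, adjusted p = 0.216), Bub1 and the 3 inhibitors.

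Before transfer the lineages were closer. On day 0, 6 members were higher in CD8 and 1 lower, against 4.07% and 4.52% of all genes. Those higher were Kif23, a kinesin of the midbody (1.17 ± 0.21, adjusted p = 0.000427), Cdt1 (0.79 ± 0.11, 2.17e-05), Mcm5 (0.59 ± 0.14, 0.00784), Mcm7 (0.41 ± 0.11, 0.0174), Ccne1 (0.66 ± 0.20, 0.0401) and Cdkn1a (0.93 ± 0.27, 0.0333). Kif23 stood at 15.87, 15.86 and 15.01 CPM in CD4 and at 33.13, 35 and 31.85 CPM in CD8, with little spread in either. Cdk2 was the member lower in CD8 (-0.64 ± 0.18, adjusted p = 0.0259), a difference that no longer passed without CD4 day 0 library 3 (-0.294) or without CD8 day 0 library 1 or 3. Of 6 such fits Ccne1 lost its call in 4 (0.539 to 0.942 over the 6), kept without CD4 day 0 library 3 or CD8 day 0 library 1, and Cdkn1a in 4 (0.643 to 1.21), kept without library 3 of either lineage. Mki67 differed by -0.13 ± 0.46.

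**Figure D2:**
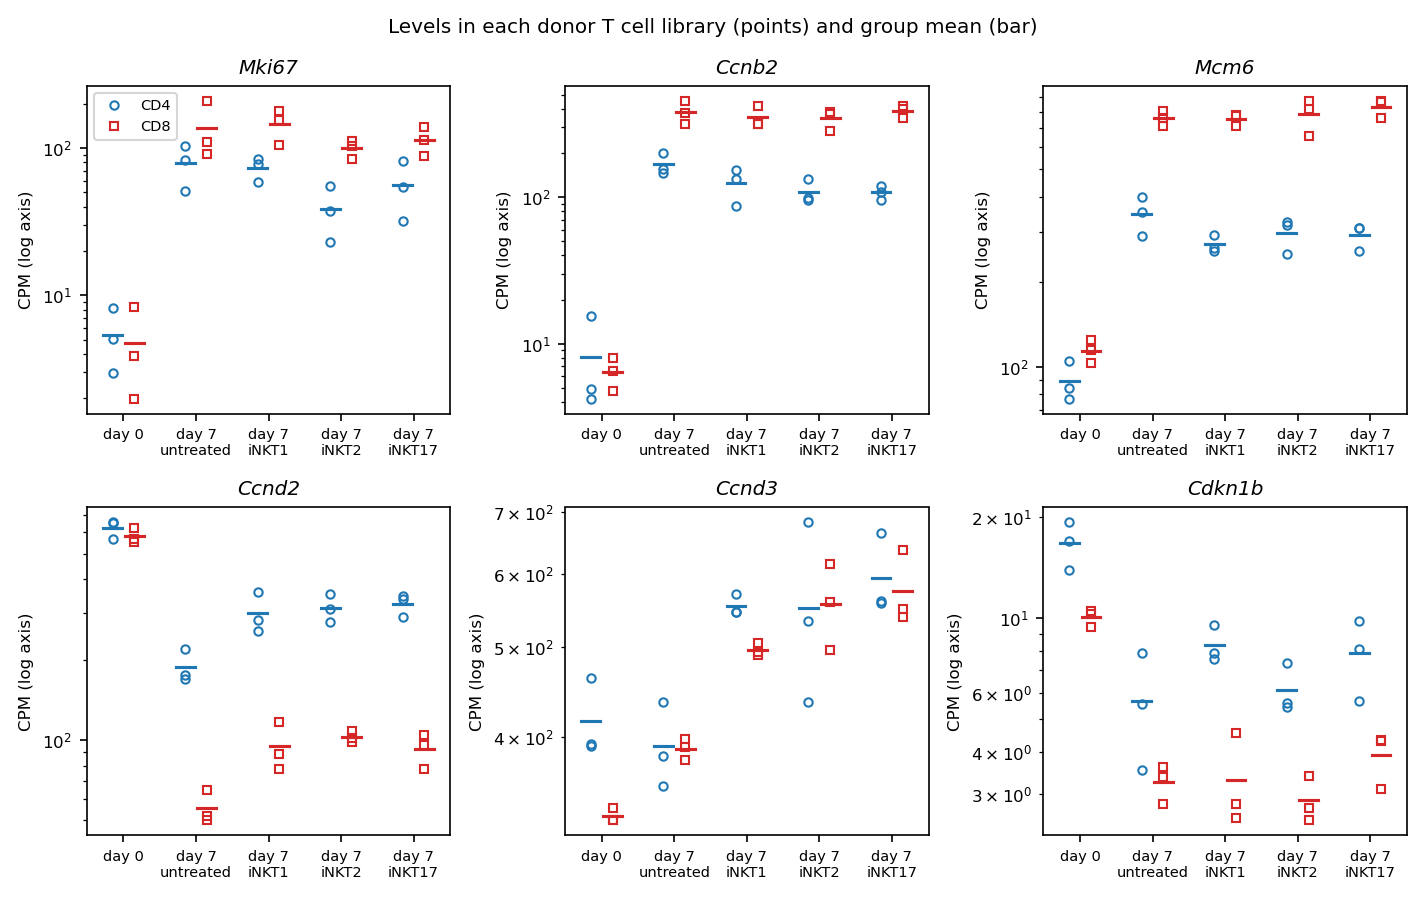
Levels of 6 members in each of the 30 donor T cell libraries, in CPM on a log axis, by lineage, day and treatment; points are libraries and bars group means, and CD4 and CD8 were scaled separately. Mki67, Ccnb2 and Mcm6 stand higher in every day 7 group than on day 0, Cdkn1b lower than on day 0 in the untreated groups, and Ccnd2 stands lowest in untreated day 7 cells of both lineages.

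The treatment comparisons ask whether iNKT cells given to the host changed the programme in donor T cells on day 7. All 3 treatments were compared with the same untreated libraries, so their results share those libraries. In CD4 cells no member passed for any treatment, against 0% of all genes for each. At an unadjusted p under 0.05 there were 6 members after iNKT1, 11 after iNKT2 and 8 after iNKT17. DESeq2 called 1, 3 and 3. Here and in the paragraphs below, the shares of all genes at an unadjusted p under 0.05 or by DESeq2 are not given. Member counts by those criteria thus have no background to be read against. In CD8 cells edgeR called no member after iNKT1 (8 unadjusted, DESeq2 3), 2 members after iNKT2 (Ccnd2 and Ccnd3, both higher) and 1 member after iNKT17 (Ccnd3, higher). Over all 14586 genes the iNKT1 comparison had 0.0891% higher and 0.0686% lower, the iNKT2 comparison 0.0891% and 0.0206%, and the iNKT17 comparison 0.137% and 0.0686%. In CD4 cells the libraries did not overlap for 5 members higher and 3 lower after iNKT1 treatment (9.31% and 10.5% of all genes), 1 and 12 after iNKT2 (6.91% and 7.5%), and 2 and 6 after iNKT17 (8.31% and 8.33%). In CD8 cells 14, 6 and 19 members were higher with no overlap after iNKT1, iNKT2 and iNKT17 (9.5%, 8.58% and 8.48% of all genes). No member was lower with no overlap in any of these CD8 comparisons (8.98%, 7.2% and 7.84% of all genes).

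The members that passed in a treatment comparison were the D-type cyclins Ccnd2 and Ccnd3, both in CD8 cells. Ccnd2 in CD8 cells stood at 51.97, 49.95 and 64.85 CPM without treatment, 88.43, 77.6 and 117.1 CPM with iNKT1, 97.84, 101.4 and 108 CPM with iNKT2, and 104.5, 77.87 and 95.81 CPM with iNKT17. Every treated library lay above every untreated one and all lay below day 0. The log2 fold changes were 0.76 ± 0.15 (adjusted p = 0.0519), 0.88 ± 0.15 (0.0393) and 0.74 ± 0.15 (0.0587). In CD4 cells Ccnd2 stood at 220, 169.5 and 175.4 CPM without treatment, 280.6, 256.2 and 357.2 CPM with iNKT1, 308.4, 276.5 and 351.4 CPM with iNKT2, and 338, 288.7 and 346.4 CPM with iNKT17. Here too no treated library overlapped the untreated ones. The fold changes of 0.66, 0.73 and 0.78 (each ± 0.16) did not pass in edgeR (adjusted p = 0.397, 0.283 and 0.131) and passed in DESeq2 (0.0109, 0.00339 and 0.000908).

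Ccnd3, the other D-type cyclin among the members, stood in CD8 cells at 377, 389.5 and 398.1 CPM without treatment, 490.5, 505.4 and 494.2 CPM with iNKT1, 559.2, 496 and 615.6 CPM with iNKT2, and 539.3, 550.1 and 637.5 CPM with iNKT17. No treated library overlapped the untreated ones, with changes of 0.36 ± 0.09 (adjusted p = 0.112), 0.52 ± 0.09 (0.0443) and 0.57 ± 0.09 (0.0216). In CD4 cells it stood at 381.1, 353.8 and 436.3 CPM without treatment, 570.5, 545.9 and 545.9 CPM with iNKT1, 682.7, 436.1 and 533.8 CPM with iNKT2, and 558.7, 560.7 and 664.8 CPM with iNKT17. Only the iNKT2 group overlapped untreated there, by 1 library. Of 6 fits that each left out 1 library, Ccnd2 with iNKT2 lost its call in 5 (log2 fold changes of 0.798 to 1.00 over the fits), Ccnd3 with iNKT2 in 5 (0.442 to 0.584) and Ccnd3 with iNKT17 in 4 (0.489 to 0.616), and all 3 were lost when only the 2 groups compared were fitted.

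In CD8 cells of the iNKT17 group most G1/S members had fold changes above 0 that did not pass the test. The median log2 fold change over 22 G1/S members was 0.367, with 21 above 0, 16 at an unadjusted p under 0.05 and 15 whose treated libraries all lay above the untreated ones, where 8.48% of all genes did so. Leaving out 1 library at a time the median was 0.328 to 0.442. Cdc6 stood at 127.7, 163.4 and 169.5 CPM with iNKT17 and at 100.2, 84.58 and 85.97 CPM without (0.77 ± 0.15, adjusted p = 0.0551). Rrm2 stood at 742.6, 904.7 and 892 CPM against 579.8, 482.7 and 548.7 CPM (0.66 ± 0.18, adjusted p = 0.115), and Mcm2 at 413.4, 467.5 and 522.8 CPM against 350, 314.7 and 329.4 CPM (0.50 ± 0.13, adjusted p = 0.107). None of the 3 overlapped and none passed in edgeR. DESeq2 called all 3 higher, with Ccnd2, Ccnd3, Ccne1, Cdk2, Cdt1 and Mcm10. The mitotic members had a median of 0.144 in this group. With iNKT1 the G1/S and mitotic medians were 0.175 and 0.0562, with 9 G1/S members not overlapping and higher (9.5% of all genes). With iNKT2 they were 0.237 and -0.126, with 6 such members (8.58%).

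In CD4 cells of the iNKT2 group no mitotic member passed the test and all measured below the untreated mean. Their median log2 fold change was -0.575, with 0 of 23 above 0, 8 at an unadjusted p under 0.05 and 10 whose treated libraries all lay below the untreated ones, where 7.5% of all genes did so. Leaving out 1 library at a time the median was -0.695 to -0.376. The 22 G1/S members had a median of -0.0155. Cdc25c stood at 5.761, 7.359 and 7.328 CPM with iNKT2 and at 11.71, 18.44 and 13.14 CPM without (-1.08 ± 0.28, adjusted p = 0.343). Kif23 stood at 32.48, 40.07 and 34.31 CPM against 53.58, 74.78 and 60.54 CPM (-0.82 ± 0.25, adjusted p = 0.401), and Cenpa at 146.7, 101.9 and 117.4 CPM against 196.9, 232.9 and 162.5 CPM (-0.69 ± 0.20, adjusted p = 0.367). The groups did not overlap for any of the 3. Mki67 stood at 22.9, 54.99 and 37.53 CPM and overlapped the untreated 83.2, 102.9 and 50.94 CPM by 1 library (-1.04 ± 0.42, adjusted p = 0.536). DESeq2 called Cdc25c (-1.10, adjusted p = 0.00751) and Mybl2 (-0.745, adjusted p = 0.0495) lower.

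With iNKT17 the CD4 mitotic median was -0.419, with 1 of 23 above 0 and 4 members not overlapping and lower (8.33% of all genes), and with iNKT1 it was -0.206. The G1/S medians were 0.00705 and -0.0129. Cdc25c stood at 6.074, 8.88 and 6.62 CPM with iNKT17 (-1.01 ± 0.28, adjusted p = 0.272) and at 7.842, 9.574 and 6.561 CPM with iNKT1 (-0.85 ± 0.28, adjusted p = 0.531), below all untreated libraries in both. Summed myeloid markers were 162 to 175 CPM in untreated CD4 libraries, 247 to 626 CPM with iNKT1, 234 to 404 CPM with iNKT2 and 112 to 350 CPM with iNKT17, and their part in these values was not tested. In CD8 libraries they were 145 to 258, 189 to 215, 243 to 374 and 125 to 196 CPM in the same order.

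**Figure D3:**
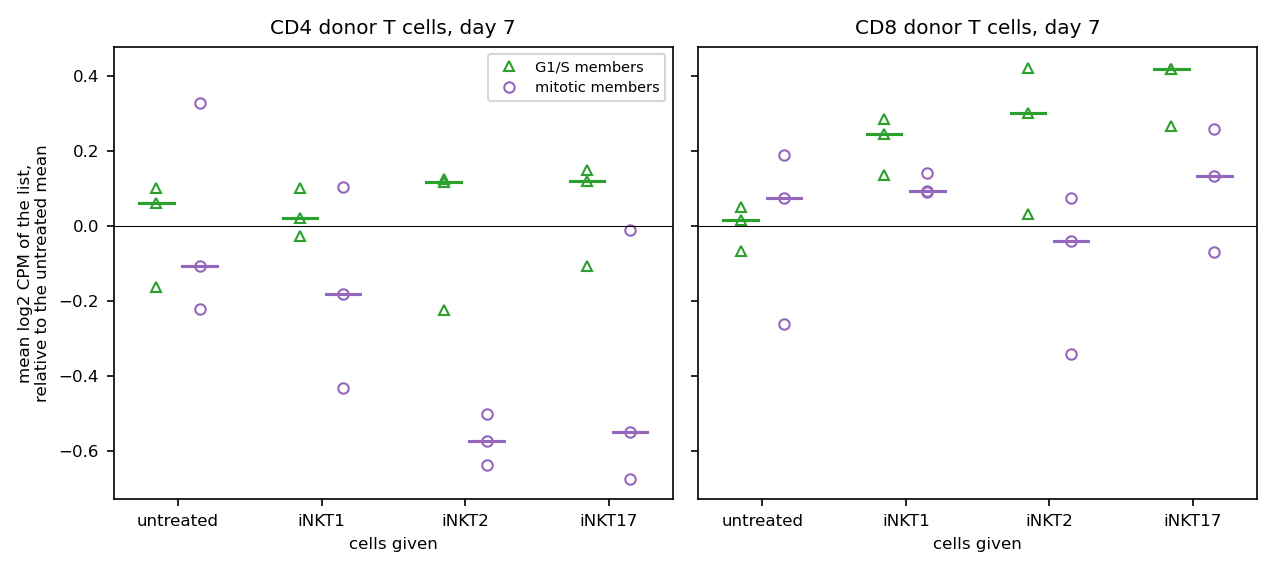
Mean log2 CPM of the 22 G1/S and of the 23 mitotic members in each library, minus the mean of the untreated day 7 libraries of the same lineage; points are libraries and bars group medians. In CD4 the iNKT2 libraries lie at -0.638 to -0.502 for the mitotic members (untreated -0.222 to 0.328), and in CD8 the iNKT17 libraries lie at 0.265 to 0.418 for the G1/S members (untreated -0.067 to 0.051).

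No member passed the test between any 2 treatments (0 calls in edgeR and in DESeq2, against 0% of all genes in edgeR). At an unadjusted p under 0.05 there were 5 members in CD4 for iNKT2 against iNKT1 and 0 for the other pairs, and 5, 4 and 2 in CD8. For the difference of each treatment effect between lineages the interaction test called none (0 calls in edgeR and DESeq2, 0% of all genes in edgeR). The unadjusted counts were 0, 2 and 12, and the medians, CD8 minus CD4, were 0.252 (iNKT1), 0.395 (iNKT2) and 0.423 (iNKT17).

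In the thymus the members were read in the 6 bulk RNA libraries of sorted iNKT1, iNKT2 and iNKT17 cells. 50 members were tested, with Ccne2, Ccnb1 and Cdc25c below the count filter. Summed markers were highest in the libraries of their label: 10 iNKT1 markers summed to 4760 to 4990 CPM in iNKT1 libraries and to 168 to 206 and 740 to 793 CPM in the others, 10 iNKT2 markers to 3250 to 3800 CPM in iNKT2 against 428 to 435 and 2310 to 2470 CPM, and 10 iNKT17 markers to 8500 to 9870 CPM in iNKT17 against 1310 to 1500 and 1470 to 1790 CPM. Not every marker followed its list. Klrb1c of the iNKT1 list stood at 509 and 443 CPM in iNKT17, against 330 and 239 CPM in iNKT1. Gata3 of the iNKT2 list stood at 158 and 154 CPM in iNKT2, against 124 and 223 CPM in iNKT1. Icos of that list stood at 1450 and 1040 CPM in iNKT2 and at 1370 and 1380 CPM in iNKT17. Sox13 of the iNKT17 list stood at 620 and 602 CPM in iNKT2, against 582 and 547 CPM in iNKT17. The biological coefficient of variation was 1.3, against 0.288 in the CD4 and 0.196 in the CD8 libraries. Many members were present in 1 replicate and absent in the other. Of 36 members at 10 CPM or more in an iNKT17 library, 10 had no count in the other library (27.8%, against 13.4% of all genes), with 1 of 29 in iNKT1 (3.45% against 6.23%) and 2 of 50 in iNKT2 (4% against 5.23%).

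iNKT2 libraries held counts of nearly all mitotic members. Aurka, the kinase of the spindle poles, had 0 counts in both iNKT1 and both iNKT17 libraries and stood at 38.55 and 13.58 CPM in iNKT2. Mybl2 had 0 counts in iNKT1, 17.3 and 17.75 CPM in iNKT2, and 12.16 and 0.07755 CPM in iNKT17. Top2a, the topoisomerase that untangles replicated DNA, stood at 24.94 and 47.13 CPM in iNKT1, 186.4 and 179.2 CPM in iNKT2, and 44.71 and 125.4 CPM in iNKT17 (iNKT2 against iNKT1 2.34 ± 0.61, adjusted p = 0.15). The iNKT2 pair stood above all other libraries for Aurka and Top2a. Tpx2 stood at 1.08 and 0 CPM in iNKT1, 26.61 and 27.71 CPM in iNKT2, and 0 and 34.74 CPM in iNKT17, and Kif11 at 0 and 0.8085, 17.84 and 30.64, and 0 and 78.75 CPM in the same order. Mki67 did not separate the sublineages: it stood at 23.86 and 96.33 CPM in iNKT1, 81.07 and 99.47 CPM in iNKT2, and 45.13 and 134.6 CPM in iNKT17.

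For iNKT2 against iNKT1 edgeR called no member, where 0.533% of the 12372 genes were higher and 0.752% lower. At an unadjusted p under 0.05 there were 6 members, and DESeq2 called 8, with Mcm6, Mybl2, Aurka, Aurkb and Top2a higher and Ccnd3, Cdc25b and Cdkn1a lower. The shares of all genes by these criteria are not given. 28 members did not overlap and were higher, and 5 were lower, where 23.4% and 20.7% of all genes did so. The mitotic members had a median log2 fold change of 2.69 with 20 of 21 above 0, and 14 of them did not overlap and were higher. That median was 2.5 to 9.92 when 1 library was left out and 4.06 with the replicate number as a block, so its size rests on single libraries and on genes with 0 counts. The G1/S median was 0.571. Mcm6 stood at 65.32 and 54.8 CPM in iNKT1, 160.9 and 208.5 CPM in iNKT2, and 92.13 and 160.6 CPM in iNKT17 (1.62 ± 0.44, adjusted p = 0.182). Rrm1 stood at 60.51 and 95.02, 232.8 and 146.8, and 31.07 and 197.1 CPM in the same order (1.29 ± 0.76, adjusted p = 0.829). Both iNKT2 libraries lay above both iNKT1 libraries for these 2 genes, and the iNKT17 libraries were far apart for Rrm1. Stromal and epithelial markers summed to 131 to 155 CPM in iNKT2 libraries, 5.45 to 19 CPM in iNKT1 and 62.1 to 91.9 CPM in iNKT17. Markers of double-positive thymocytes summed to 80.4 to 110, 25.3 to 33.2 and 18 to 79 CPM in the same order. Rag2, Dntt and Ptcra of the latter list, and Col3a1, Epcam, Krt5 and Krt8 of the former, were at 0 in iNKT2. The first sum was nearly all Pecam1 in iNKT2 (155 and 131 CPM), and the second was mostly Cd1d1 (110 and 76.5 CPM). The part of such cells was not tested.

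**Figure D4:**
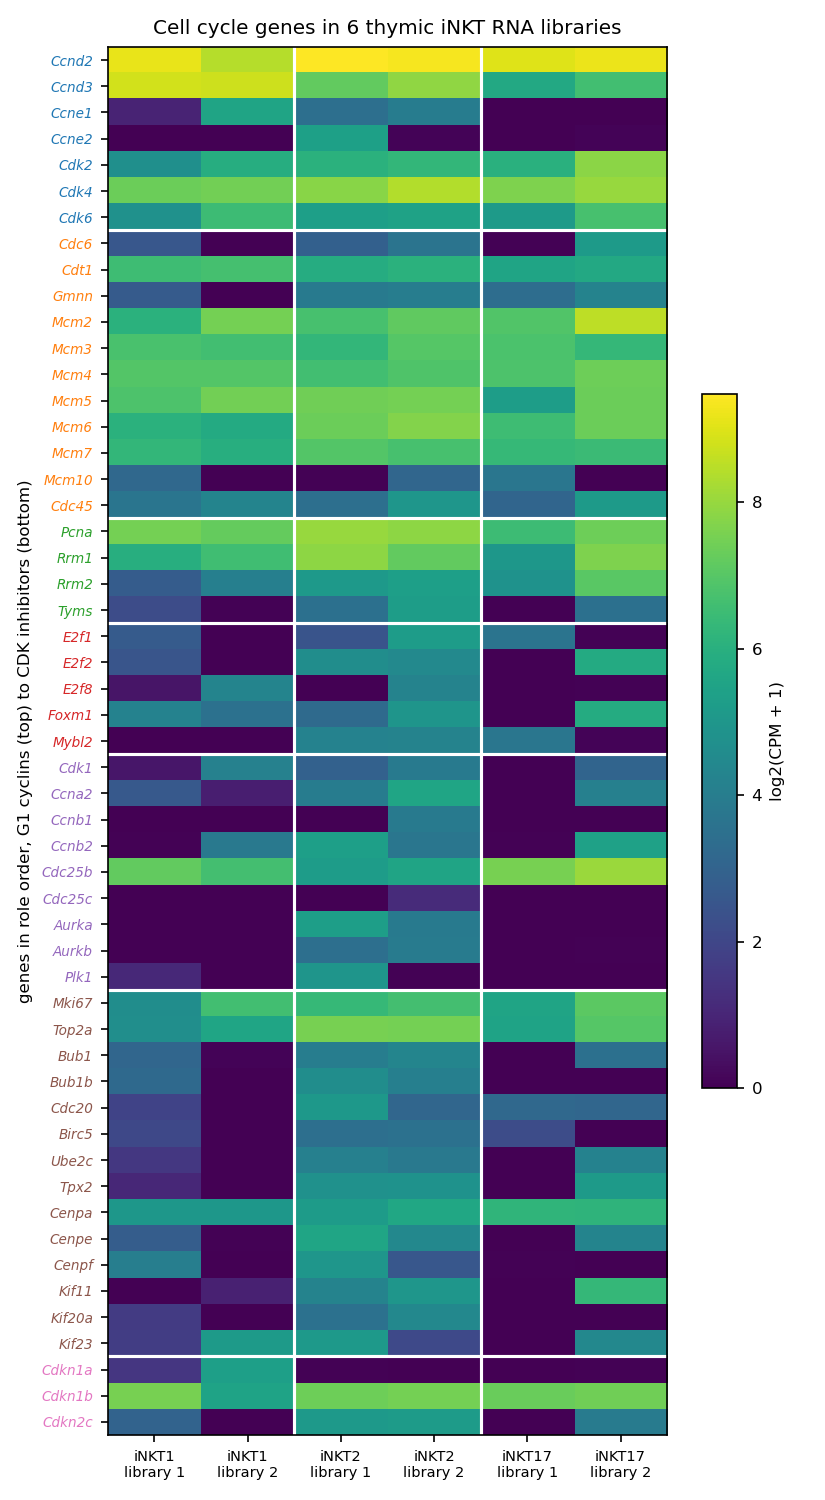
Heat map of log2(CPM + 1) of the 53 members in the 6 thymic iNKT RNA libraries, ordered by role; yellow is high and dark blue is 0. The 2 iNKT2 libraries are filled across most of the mitotic roles, though Ccnb1, Cdc25c and Plk1 each had a library with 0 or 1 count. The 2 iNKT17 libraries differ from each other, with 10 members at 10 CPM or more in one and at 0 in the other.

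By edgeR 2 members passed the test between sublineages. Ccnd3 stood at 451.7 and 433.7 CPM in iNKT1, 146.1 and 238.7 CPM in iNKT2, and 51.4 and 97.4 CPM in iNKT17. It was lower in iNKT17 than in iNKT1 by edgeR (-2.57 ± 0.41, adjusted p = 0.0107), the 1 member called in that comparison, where 0.986% of all genes were higher and 1.01% lower. The groups followed each other without overlap, though iNKT2 against iNKT1 (-1.20 ± 0.39, adjusted p = 0.336) and iNKT17 against iNKT2 (-1.37 ± 0.40, adjusted p = 0.302) did not pass. Without 1 library at a time its iNKT17 difference was -3.09 to -2.17. Cdc25b, a phosphatase that activates cyclin-dependent kinases, stood at 146.5 and 99.87 CPM in iNKT1, 36.39 and 45.24 CPM in iNKT2, and 185.1 and 264.9 CPM in iNKT17. It was higher in iNKT17 than in iNKT2 (2.46 ± 0.43, adjusted p = 0.0394), the 1 member called there, where 0.436% of all genes were higher and 0.275% lower, and its difference was 2.19 to 2.71 without 1 library. That call was lost with the replicate number as a block and when only those 2 groups were fitted.

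Ccnd2 was high in every sublineage, at 566.1 and 343.2 CPM in iNKT1, 711.4 and 658.2 CPM in iNKT2, and 513.8 and 582.8 CPM in iNKT17 (iNKT2 against iNKT1 0.59 ± 0.27, adjusted p = 0.687). Cdkn1b stood at 182.1 and 43.84, 165.4 and 181.1, and 159.3 and 170.8 CPM in the same order, so only 1 iNKT1 library was apart. Cdkn2c stood at 7.069 and 0 CPM in iNKT1, 32.66 and 35.32 CPM in iNKT2, and 0 and 14.42 CPM in iNKT17. Cdkn1a stood at 1.8 and 40.07 CPM in iNKT1 and at no more than 0.03877 CPM in the other 4 libraries. Both iNKT1 libraries held it, at levels far apart.

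Open chromatin was measured at 126 regions that lay within 2000 bases of a member's gene span (RefSeq, GRCm38.p6). All 53 members had a region, and 46 regions at 41 members lay over the promoter window. The ATAC table gives coordinates without gene names, so a region may belong to a neighbouring gene. In iNKT2 against iNKT1 13 regions were higher and 31 lower (edgeR, adjusted p under 0.05), where 22.3% and 16.3% of the 54520 regions tested were. In iNKT17 against iNKT1 16 were higher and 20 lower (23.5% and 13.6% of all), and in iNKT17 against iNKT2 3 were higher and 1 lower (5.11% and 3.24%). Libraries with the same number varied together, and with that number as a block the counts were 16 and 56, 19 and 55, and 13 and 2. At the promoters 0 regions were higher and 15 lower of 46 in iNKT2 against iNKT1, and 0 and 9 in iNKT17 against iNKT1. With the block the promoter counts were 1 and 31, and 1 and 28. Promoter regions of all genes also ran lower, with 8.6% higher and 28.6% lower in the first comparison, 7.99% and 17.6% in the second, and medians of -0.347 and -0.296, against -0.468 and -0.361 for the members. With the block, 1257 of the 10389 promoter regions of all genes were higher and 5318 lower in the first comparison, and 1209 and 4992 in the second. In both fits more promoter regions were lower than higher, among the members and among all genes.

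Ccnd3, whose RNA was lower in iNKT17 than in iNKT1, was also less open in iNKT17 at 2 regions shown here. Its promoter region (chr17:47504776-47505135, over the annotated start) stood at 28 and 29.3 CPM in iNKT1, 16.2 and 12.9 CPM in iNKT2, and 8.36 and 9.38 CPM in iNKT17 (iNKT17 against iNKT1 -1.69 ± 0.23, adjusted p = 0.000534). A region near the end of its span (chr17:47598047-47598317) stood at 24.1 and 25.2, 7.94 and 7.25, and 7.1 and 5.71 CPM (-1.95 ± 0.24, adjusted p = 0.000334). Replicates were close and iNKT1 stood apart at both. Another region within the span (chr17:47542061-47542598), was higher in iNKT17 than in iNKT1 (0.68 ± 0.23, adjusted p = 0.047). The promoter sequence of Ccnd3 held none of the letters searched and is shown for that contrast, capitals being absent.
Ccnd3 (chr17:47504801-47505050, plus strand): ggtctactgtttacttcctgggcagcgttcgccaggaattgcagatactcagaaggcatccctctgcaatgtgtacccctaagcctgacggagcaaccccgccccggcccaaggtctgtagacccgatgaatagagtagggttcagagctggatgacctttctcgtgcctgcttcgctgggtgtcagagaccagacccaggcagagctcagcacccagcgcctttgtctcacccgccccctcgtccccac

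Cdc6 had the largest gain in iNKT17 against iNKT1. A region within its span near the 3′ end (chr11:98923077-98923632) stood at 0.827 and 0.879 CPM in iNKT1, 5.73 and 2.28 CPM in iNKT2, and 23.3 and 24.3 CPM in iNKT17. It differed in all 3 comparisons, at 4.80 ± 0.44 for iNKT17 against iNKT1 (adjusted p = 0.000101), 2.25 ± 0.41 for iNKT2 against iNKT1 (0.0032) and 2.55 ± 0.39 for iNKT17 against iNKT2 (0.00596). A second region just beyond the span (chr11:98924840-98925719) stood at 4.36 and 3.96, 10.3 and 12.4, and 26.8 and 25.1 CPM. The order of the sublineages was the same at both. In RNA the replicates were too far apart to give an order: Cdc6 stood at 4.876 and 0 CPM in iNKT1, 6.431 and 11.48 CPM in iNKT2, and 0.03217 and 35.17 CPM in iNKT17.

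Of the 80 regions outside promoters, 13 were higher and 16 lower in iNKT2 against iNKT1 (15 and 25 with the block), with a median of -0.175. A region each of Top2a and Cenpa, both mitotic members, is described here after its values were seen. The region of Top2a (chr11:99009870-99010450, within the gene) stood at 0.268 and 0.484 CPM in iNKT1, 4.91 and 4.57 CPM in iNKT2, and 2.28 and 2.91 CPM in iNKT17 (iNKT2 against iNKT1 3.70 ± 0.46, adjusted p = 0.000585). The region past the end of Cenpa (chr5:30674865-30675339) stood at 0.341 and 0.176, 5.07 and 4.88, and 3.5 and 3.9 CPM (4.17 ± 0.45, adjusted p = 0.000322). Both were lowest in iNKT1. The promoter region of Mki67 (chr7:135716024-135716951) was open in all, at 64.7 and 64.1, 42.2 and 49.4, and 48.9 and 50.2 CPM (-0.49 ± 0.17, adjusted p = 0.0488). For Cdkn2c the promoter region (chr4:109666296-109667213) stood at 82.2 and 105, 28.2 and 29.7, and 31.8 and 42.4 CPM (-1.70 ± 0.21, adjusted p = 0.000603), lower in iNKT2 where its RNA was 32.66 and 35.32 CPM against 7.069 and 0 CPM in iNKT1. Regions of Ccnd2 (chr6:127151653-127152011) and Ccne1 (chr7:38107365-38108254), near the starts of both genes, were also lower in iNKT2, at a mean of 18.1 CPM against 45.3 CPM in iNKT1 and of 71.2 CPM against 148 CPM.

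**Figure D5:**
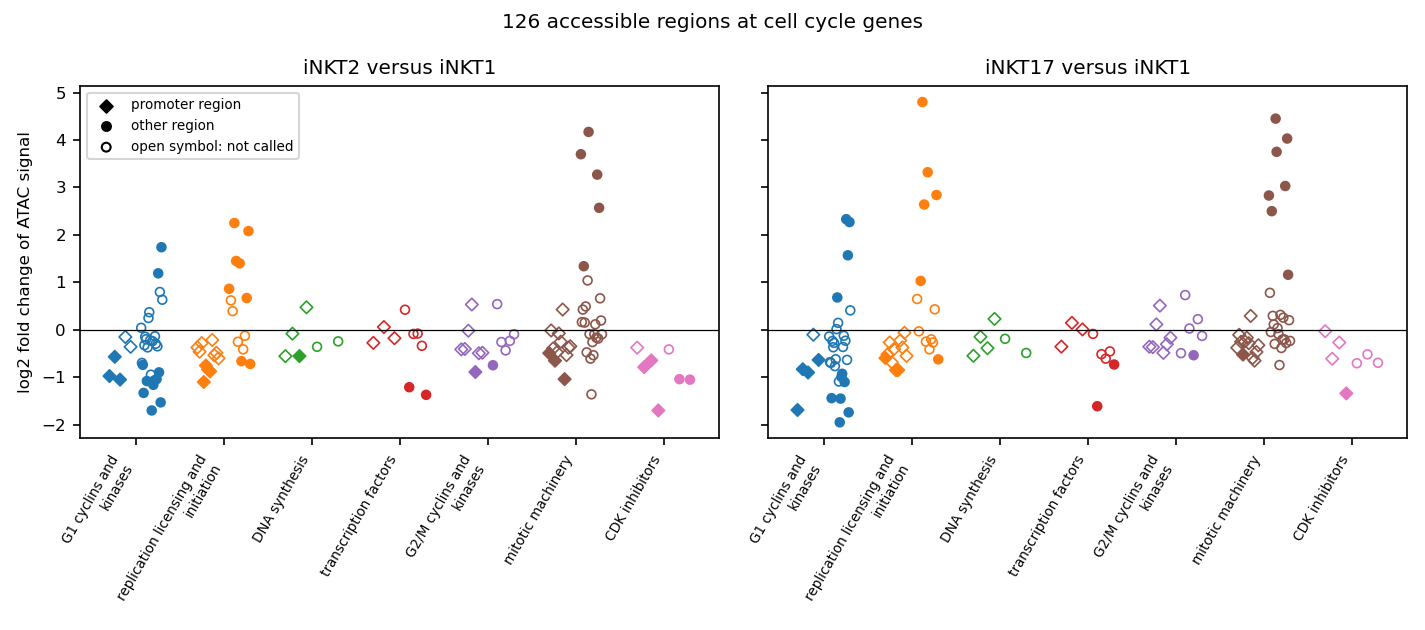
Log2 fold change in ATAC signal against iNKT1 for the 126 regions near the members, by role, for iNKT2 and iNKT17; diamonds are regions over a promoter window, circles other regions, and filled symbols passed edgeR at an adjusted p under 0.05. No promoter region passed above 0 in the fit shown, which has no replicate block (1 did in each comparison with it), and the highest point is the Cdc6 region at 4.80 in iNKT17.

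Mitotic UMIs were sparse in single thymic iNKT cells. With at least 200 genes per barcode, 146 cells were kept for mouse A and 148 for mouse B, at a median of 5132 and 5761.5 UMIs (counted molecules), and the libraries shared 2 barcodes. No caller of doublets was run. The 23 mitotic members summed to 70 and 141 UMIs, or 83.9 (95% exact Poisson interval 65.4 to 106) and 157 (132 to 185) CPM of UMIs. These intervals cover counting error only, and with 1 library per mouse the difference was not tested. Barcodes with fewer than 100 genes, which hold free RNA, gave 110 and 201 CPM, so the level over all cells was not above that of free RNA. A mitotic UMI was found in 39 of 146 cells (26.7%, 95% exact interval 19.7 to 34.7%) and in 54 of 148 (36.5%, 28.7 to 44.8%). CPM is a share of UMIs and not an amount per barcode. Barcodes with fewer than 100 genes held 281351 and 274136 UMIs, spread over nearly all of the 76780 and 82756 barcodes with a UMI. How many of the mitotic UMIs in cells came from free RNA was not tested.

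A few cells held more mitotic UMIs than the others. At 10 or more mitotic UMIs, a number set after the data were seen, there was 1 cell in mouse A (0.685%, 0.0173 to 3.76%) and 3 in mouse B (2.03%, 0.42 to 5.81%), while every other cell had 3 at most. These cells held 32.9% and 53.2% of the mitotic UMIs. The cell of mouse A had 23 mitotic UMIs, among them 8 of Ccnb2 and 5 of Cenpa, with 17 UMIs of iNKT2 markers. In mouse B the cell with 42 had 12 of Birc5 and 7 of Top2a with 41 UMIs of iNKT1 markers, the cell with 23 had 8 of Cenpa and 5 of Ccnb2 with 44 UMIs of iNKT1 markers, and the cell with 10 had 5 of Cenpa with 13 UMIs of iNKT2 markers. Their total UMIs ran from 8462 to 14693, above the median of their library, and the cells of mouse A with 23 and of mouse B with 10 ranked 2 and 3 by depth. Whether any was a doublet was not tested.

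G1/S members gave 790 UMIs in mouse A and 1058 in mouse B, most of them of the D-type cyclins. Their sum was 947 CPM (95% exact Poisson interval 882 to 1015.8) in mouse A and 1179.1 CPM (1109.1 to 1252.3) in mouse B, against 1059.2 and 1141.8 CPM in barcodes with fewer than 100 genes, so it too was not above the level of free RNA beyond counting error. Ccnd2 gave 392 and 522 UMIs in 117 and 127 cells (80.1% and 85.8%), at 470 and 582 CPM against 380 and 449 CPM in barcodes with fewer than 100 genes, and Ccnd3 gave 120 and 163 UMIs, at 144 and 182 CPM against 220 and 204 CPM, below the level of free RNA in both mice. Mki67 had 0 UMIs in mouse A, where 0 of 146 cells allows a share of cells with a UMI of up to 2.05% (3 counts), and 3 UMIs in 2 cells of mouse B.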

How the data were processed

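The authors deposited count tables (unit: counts of reads per gene, or per region for ATAC-seq, and UMI counts per barcode for single cells), not normalised. Per the labels' protocols, the sorted thymic cells went through TruSeq (stranded mRNA), the donor cells through SMARTer v4 cDNA synthesis followed by Nextera XT, and the single cells through 10x Chromium 3′ v2. The submitters' processing notes name Cell Ranger 2.1, STAR 2.5.4, kallisto, Bowtie2, MACS2, HOMER 4.9.1, bedtools 2.27.1 and DESeq2 1.22.2, and builds mm10 and GRCm38, without saying which made which table.

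The members and the other gene lists were chosen with earlier results of these data known. Tests were run over all genes with edgeR 4.0.16 in R 4.3.3 (filterByExpr by group, TMM scaling, robust quasi-likelihood test, Benjamini-Hochberg adjustment, threshold 0.05): CD4, CD8 and thymic libraries in separate fits, both lineages in a joint fit, ATAC regions in another. Levels are CPM on the TMM-scaled library size, and list means use log2 CPM with a prior count of 2. Standard errors are the log2 fold change divided by the root of the F statistic. DESeq2 1.42.0, no count filter, only the groups compared, the replicate number as a block and each library left out were alternatives. Ensembl IDs were matched to symbols through the single-cell gene tables. Every member was counted, and library values were printed for Mki67, for up to 2 members per role with the smallest p and for members called against the majority. In the treatment comparisons, between treatments and between lineages only the main ones of these were printed. Genes beyond that rule (among them Ccnd3, Cdk4, Kif23, Cdc6 and Ccnd2 where it was not among the smallest p) were named after their values were seen.

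The ATAC table gives coordinates only, so regions were assigned by RefSeq spans and not by the table as first planned. In the ATAC libraries the replicate numbers paired the samples (correlations of same-numbered deviations 0.438 to 0.602, all 6 over 0.1), so blocked counts stand beside the others. With 2 libraries per group, each pair of groups gives its correlation in duplicate, so the 6 values are not independent. Columns left unmatched to a sample numbered 0. The 3 CD8 day 0 columns share a name and were numbered in column order. Bulk libraries of CD4-positive and CD4-negative iNKT1 cells were not analysed here. The scripts were checked on simulated counts with known changes. Of genes changed 2-fold, 44% were recovered for CD4 day 7 and 78% for CD8 day 7. For iNKT2 against iNKT1 it was 1.04% in thymic RNA and 3% in ATAC regions. At 4-fold the shares were 89%, 98%, 5.15% and 54% in the same order. False calls made up 3.62%, 2.76%, 40% and 34.5% of all calls. In the simulation thymic RNA and ATAC calls were thus less reliable than the day 7 calls. It was a single draw per comparison that changed 100 genes or regions at each fold and drew the libraries independently. The share of false calls depends on how many features truly change, so these shares need not hold for the calls in the data.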

Additional observations from a re-analysis of the deposited data

Results flagged for a closer look

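The change from day 0 to day 7 differed between CD8 and CD4 by the interaction test for 28 members. The values below are log2 differences, CD8 minus CD4. Those given in the report with a larger change in CD8 were Ube2c (1.76), Cdk1 (1.56), Plk1 (1.46), Tyms (1.38), Cdk2 (1.34), Gmnn (1.33), Cenpa (1.23), Rrm1 (1.09), Mcm4 (1.01) and Mybl2 (0.98). Those with a lower value in CD8 were Ccnd2 (-1.68), which fell in both lineages, and Cdkn1a (-1.35), which rose in both. Without CD4 day 0 library 3 the 28 became 14.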

How the results depend on the processing

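Over 28 counts of called members or regions, 250 of 300 alternatives stayed within 1.5 times. Many of these counts were 0, most of them in comparisons where no gene at all was called. The share therefore says little about the counts above 0. With DESeq2 the counts were 1, 3 and 3 in CD4 and 3, 4 and 9 in CD8 (iNKT1, iNKT2, iNKT17), 8, 6 and 7 in the thymus (iNKT2 and iNKT17 against iNKT1, iNKT17 against iNKT2) and 7 ATAC regions for iNKT17 against iNKT2. Without a count filter they were 1, 1 and 3 in CD8, 3 for thymic iNKT2 against iNKT1 and 2 for iNKT17 against iNKT2. Fitting only the groups compared gave 0 for CD8 iNKT2 and iNKT17, 0 for thymic iNKT17 against iNKT2 and 2 for CD8 against CD4 on day 0. The replicate block gave 1 and 2 for CD8 iNKT2 and iNKT17, 0 for thymic iNKT17 against iNKT2, and 72, 74 and 15 ATAC regions, and moved no other count by over 1.5 times. In RNA same-numbered deviations correlated over 0.1 in 0 of 6 thymic, 14 of 30 CD4 and 6 of 18 CD8 pairs. Correlating best with their own number were 2 of 6, 10 of 15 and 4 of 12 libraries. The CD4 median was 0.0702, against -0.0317 for different numbers, so the CD4 libraries may be paired in part. No block was possible with CD8 day 0. Regions within the gene span only, chosen after seeing the data, gave 1 for iNKT17 against iNKT2. The cause was not tested.

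Leaving out 1 library at a time gave 14 to 30 for the day 7 change between lineages, 4 to 9 for CD8 against CD4 on day 0, 0 to 1 and 0 to 2 for CD8 iNKT2 and iNKT17, 1 to 5 for thymic iNKT17 against iNKT1, 1 to 4 for iNKT17 against iNKT2, and 16 to 37 and 2 to 3 ATAC regions for iNKT2 against iNKT1 and iNKT17 against iNKT2. Of 749 alternatives for named members 50 lost the call and 0 reversed. With 2 libraries per sublineage and a coefficient of variation of 1.3, the precision for single thymic members was low, and edgeR and DESeq2 differed in the members called there.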
